A study of Homo sapiens with 4 samples.

Results

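The baseline transcriptome of HCT116 cells treated with a control siRNA was described from the 2 libraries labelled control siRNA, of 4 in the whole series. HCT116 is an established human colorectal carcinoma line, and both libraries came from cells that had received a control small interfering RNA (siRNA) and were collected after 48 h. No untransfected or mock-treated cells enter the description, so everything below is the state of transfected cells. The other 2 libraries, from cells that received siRNA against the kinesin gene KIF26B, were not compared with the control. Poly(A) RNA was sequenced, and the authors deposited 1 value per gene for 58735 Ensembl identifiers in each library. The unit was taken from the numbers as FPKM, fragment counts divided by exon length and by the size of the library, so that levels can be compared between genes. The methods speak of biological replicates in general, but of more per experiment than the 2 libraries here, and neither they nor the labels say whether these 2 were separate cultures, so the spread between them may be technical.

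A cultured cancer cell line keeps part of the program of the tissue it came from and loses other parts. In the colon, stem cells at the base of the crypt are held by Wnt signals, and their progeny become absorptive cells, mucus-secreting goblet cells, hormone-secreting cells and tuft cells, each with its own marker genes. HCT116 is known for a stabilized β-catenin and for deficient DNA mismatch repair.

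A gene was called expressed at 1 FPKM or more in both libraries and silent at 0.1 FPKM or less in both, and any other gene was called low. Of 19777 protein-coding genes, 11063 were expressed, or 55.9%, and 5565 were silent, or 28.1%. These percentages are the background for every gene list below. Among the silent genes 3497 were listed at 0 in both libraries. A further 3149 protein-coding genes were low. By mean level, 6774 genes lay from 1 to 10 FPKM, 4130 from 10 to 100, 249 from 100 to 1000 and 21 at 1000 or more. The median protein-coding gene stood at 2.06 FPKM in replicate 1 and 2.10 FPKM in replicate 2.

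**Figure D1:**
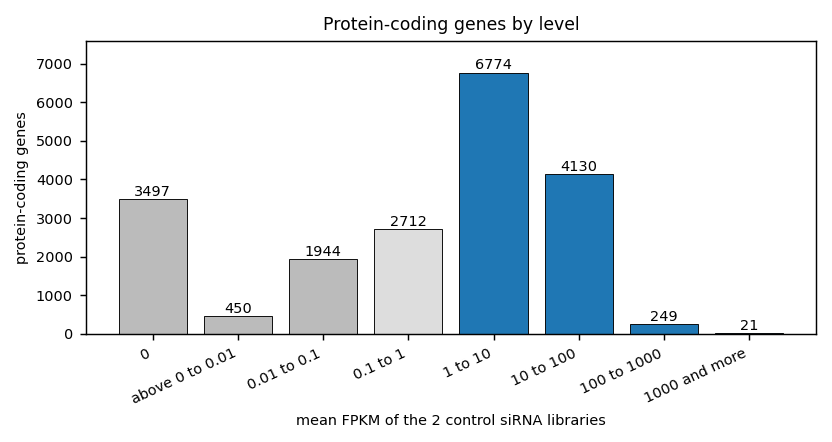
Number of protein-coding genes (y axis) by mean FPKM of the 2 control siRNA libraries (x axis, bins of unequal width). Blue bars hold means of 1 FPKM or more, and the tallest is the 6774 genes from 1 to 10 FPKM; 3497 genes stand at 0.

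Read numbers were worked back from FPKM for 31440 of the 31441 genes above 0 and came to 21408517 in replicate 1 and 27083521 in replicate 2. Where several lengths gave whole reads, the one nearest to the annotation was taken, so single genes can be off by a whole factor and reads serve only as a guide to precision. Orders and ratios given in reads below carry this limit. At 1 to 10 FPKM the median expressed gene rested on 487 and 609 reads, and at 10 to 100 FPKM on 1827 and 2296 reads. For a gene at 0, the limit is 3 reads, which allowed WT1 up to 0.0188 and 0.0149 FPKM and the shorter DKK4 up to 0.171 and 0.136 FPKM. These limits cover counting error only.

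The replicates were close. Over the expressed protein-coding genes the median absolute difference between replicates was 0.057 on the log2(FPKM + 1) scale. It shrank with level: on the plain log2 scale the median absolute ratio was 0.09 at 1 to 10 FPKM, 0.05 at 10 to 100 FPKM and 0.03 at 100 to 1000 FPKM. Only 52 expressed genes, 0.470%, differed by more than 1.5-fold and 4 by more than 2-fold. These 4, named after their values were seen, were U2AF1, EIF3CL, SMN1 and OR51B6. SMN1, the survival motor neuron gene, was at 26.4 FPKM in replicate 1 and 6.11 FPKM in replicate 2, whereas its near-identical copy SMN2 was at 4.08 and 4.23 FPKM. U2AF1, a splicing factor gene, was at 5.19 and 1.02 FPKM. EIF3CL had 63 and 361 reads, and with its near-identical copy EIF3C the sum was 723 and 941 reads, a log2 ratio of 0.05 after scaling. For SMN1 and SMN2 together that log2 ratio was still -1.57.

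Genes of the mitochondrial genome held 25.5% and 25.4% of all FPKM in replicates 1 and 2, although they took only 6.26% and 6.27% of the reads. These genes are short, and FPKM divides by length. All 13 protein-coding genes of the mitochondrial genome, which encode subunits of the respiratory chain and the ATP synthase, were among the 100 most abundant, and 12 were among the top 25. MT-CO2, a subunit of cytochrome c oxidase, was first at 9908 and 10171 FPKM. Close to it stood MT-CO3 at 9846 and 9798 FPKM, MT-ATP6 at 9086 and 8995 FPKM and MT-CO1 at 8504 and 8355 FPKM. Subunits of NADH dehydrogenase followed, MT-ND4L at 7352 and 7367 FPKM, MT-ND4 at 6574 and 6604 FPKM and MT-ND3 at 3828 and 4162 FPKM. MT-ND6, the one of these read from the other strand, was at 2916 and 3119 FPKM, and MT-CYB was at 2940 and 2937 FPKM. The pairs of values of MT-ND6 and MT-CYB overlapped, so their order was not resolved. MT-ND5 was at 2256 and 2387 FPKM, MT-ND2 at 2172 and 2147 FPKM and MT-ND1 at 1958 and 2029 FPKM.

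The nuclear transcript of highest level was ACTG1, which encodes the cytoplasmic γ-actin (chr17:79476439-79490873 of GRCh37, minus strand), at 2491 and 2447 FPKM. Next came TMSB10, an actin-monomer-binding thymosin (chr2:85132780-85133795 of GRCh37), at 2106 and 2150 FPKM. EEF1A1, the elongation factor that brings tRNA to the ribosome, was at 1545 and 1544 FPKM. HMGA1, an architectural chromatin protein typical of embryonic and tumor cells, was at 1342 and 1342 FPKM, and the glycolytic enzyme gene GAPDH at 1174 and 1162 FPKM. The ribosomal protein genes RPS2 (1131 and 1168 FPKM), RPS12 (1051 and 1074 FPKM), RPL8 (1025 and 1065 FPKM) and RPL13A (905 and 951 FPKM) were in the same range. Among them stood FTL, the ferritin light chain that stores iron, at 1017 and 1032 FPKM and the chaperone gene HSP90AB1 at 973 and 968 FPKM. KRT19 (842 and 862 FPKM) and the translocation factor gene EEF2 (781 and 793 FPKM) closed the 25 most abundant protein-coding genes. Several neighbors in this order overlapped, such as GAPDH with RPS2 and RPS12 with RPL8. The ranking depended on length: by recovered reads only 14 of these 25 genes stayed among the top 25, with EEF1A1 first. That order rests on the recovered lengths, 11896 bases for EEF1A1, which may be off by a whole factor.

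Expression was concentrated in few genes. The 25 most abundant held 30.8% of protein-coding FPKM in each library, and the 100 most abundant held 41.7% and 41.9%. Within the nuclear genome the 25 most abundant held 11.8% and 11.9%, and the 1000 most abundant 54.4% and 54.7%. Ribosomal proteins made up 35 of the top 100. All 79 genes of the cytosolic ribosome under a narrow symbol rule were expressed, with a median of 215 FPKM and together 7.21% and 7.38% of all FPKM. A wider symbol rule counted 86 genes, of which 83 were expressed, 1 low and 2 silent. The lowest of the 79 under the narrow rule was RPS10 at 1.45 and 1.46 FPKM, and 31.5% of its exon bases are shared with another gene.

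The counting rule for reads from bases that genes share is not stated, and the part of such sharing in any value was not tested. Genes with shared bases stood at both high and low levels, and RPS2, with 25.9% of its exon bases shared, was among the most abundant. ALDOA, an abundant glycolytic enzyme gene in most cells, was at 11.2 and 10.5 FPKM with 54.2% of its exon bases shared. Some pseudogenes were listed at values near or above those of their parent genes. RPS28P7, a processed copy of 210 bases, was listed at 2108 and 1984 FPKM against 88.3 and 108 FPKM for RPS28 itself, whose exons span 2119 bases. In reads the gap was smaller, 8690 and 10279 for RPS28P7 and 3671 and 5650 for RPS28. RPS2P5 at 809 and 864 FPKM stood close to its parent RPS2 at 1131 and 1168 FPKM. These pseudogenes were chosen after their values were seen, and reads of parent and copy cannot be told apart here. In all, 819 of 14990 pseudogenes were expressed and held 4.18% and 4.22% of FPKM but 0.930% and 0.945% of reads.

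Of 14623 long noncoding RNAs, 1054 (7.21%) were expressed, and together they held 1.88% and 1.84% of FPKM and 1.46% and 1.44% of reads. They thus held less than the pseudogenes in FPKM and more in reads. Those of highest level, named after their values were seen, were the snoRNA host gene SNHG6 at 114 and 117 FPKM, the paraspeckle RNA NEAT1 at 90.7 and 91.8 FPKM, SNHG29 at 73.4 and 74.4 FPKM and NORAD at 68.7 and 71.0 FPKM. GAS5 was at 55.8 and 57.1 FPKM and MALAT1 at 38.1 and 41.4 FPKM. SNHG6 shares 58.9% of its exon bases with another gene. Small RNA classes are poorly captured from poly(A) RNA: 104 of 1800 snRNA genes and 97 of 1173 microRNA genes reached 1 FPKM, most of them on fewer than 20 reads, and they are not read further.

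Promoter sequence was set beside level. RefSeq promoter windows, from 250 bases before to 50 bases after the annotated start (GRCh38.p14), were matched by symbol to 15249 of 19758 nuclear protein-coding genes, and 11262 of these genes had a single listed start. Shares below are over genes with a single start, and a match is a match of letters only. A pair of motifs, chosen after their shares were seen, is shown: the TATA box, searched as TATAAA on the sense strand from 40 to 20 bases before the start, and a run of 5 pyrimidines beginning with C exactly at the start. Such a tract at the 5′ end is known from mRNAs of the translation machinery, whose translation follows growth signals. In the first 4 windows below capitals mark TATAAA, and in the last 4 they mark the first 5 transcribed bases.
EEF2 (chr19:3985476-3985505, minus strand): ccggcgtccgccTATAAAaagctgagtgtt
MT2A (chr16:56608543-56608572, plus strand): gctctttctagcTATAAAcactgcttgccg
AREG (chr4:74445095-74445124, plus strand): cccggctgagccTATAAAgcggcaggtgcg
DKK1 (chr10:52314239-52314268, plus strand): ccgggcccgcggTATAAAggcagccgcggt
EEF1A1 (chr6:73521028-73521057, minus strand): aagtgcagtagtcgccgtgaacgttCTTTT
RPS12 (chr6:132814544-132814573, plus strand): ataccggcatgcgtgcggatgaggcCTCTT
RPL13A (chr19:49487583-49487612, plus strand): agaaaccctgcgacaaaacctcctcCTTTT
EEF2 (chr19:3985459-3985488, minus strand): aaagctgagtgttgacgtcagcgttCTCTT

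The pyrimidine tract was present at 30.3% of the starts of the 250 most abundant nuclear genes, against 4.68% of all 11262 and 3.10% of the genes at 0 in both libraries. Of 63 ribosomal protein genes with a window, 47 had it at a listed start, and the gene set with the tract therefore overlaps the ribosomal genes. TATAAA was present in 13.8% of the 250 most abundant genes and in 4.41% of all genes. Its share was lowest, at 1.07%, among genes expressed below 10 FPKM, and stood at 9.84% among genes at 0. Over the promoters of all listed starts, the shares were 7.80% for the 250 most abundant genes, 7.63% for genes at 0 and 3.02% in all. The motif was thus most frequent at both ends of the range of levels, and which end was higher was not resolved. Among genes with a single start, CCAAT, searched on both strands over the whole window, was also most frequent in the 250 most abundant, at 48.0% against 37.5% of all. EEF2 carried both features, and MT2A, a metal-binding metallothionein at 582 and 660 FPKM, carried TATAAA, as did the growth factor AREG and the Wnt antagonist DKK1.

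CpG content followed a single direction. The observed over expected CpG ratio had a median of 0.90 in the 250 most abundant genes, 0.85 in genes expressed below 10 FPKM, 0.59 in low genes, 0.36 in silent genes above 0 and 0.30 in genes at 0. Read the other way, 7.45% of 1450 genes with a ratio below 0.2 were expressed, compared with 83.3% of 1417 genes with a ratio of 1 or more. At ratios from 0.8 to 1 there were still 9.79% of 3778 genes silent. These are shares over genes, which are not independent replicates.

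The labelled cell type was checked against marker lists. All 12 general epithelial markers were expressed, among them the simple-epithelial keratins KRT19 (chr17:39679869-39684560 of GRCh37) at 842 and 862 FPKM, KRT8 at 485 and 482 FPKM and KRT18 at 245 and 243 FPKM. The adhesion molecule EPCAM was at 82.2 and 82.3 FPKM, and E-cadherin, CDH1, at 24.1 and 23.9 FPKM. The median of the list was 41.5 and 40.4 FPKM. Markers of the colon epithelium were a different matter, with 3 of 14 expressed and 7 silent. Among those expressed, GATA6 was at 4.27 and 4.41 FPKM and the intestinal homeobox factor CDX2 at 2.89 and 3.34 FPKM. HNF4A straddled the threshold at 1.07 and 0.942 FPKM. The silent genes included CDX1 and FABP1, both at 0 in both libraries, and LGALS4, GPA33, VIL1 and PHGR1. VIL1 shares 44.2% of its exon bases with another gene. For the short PHGR1, 3 reads would be 0.162 and 0.129 FPKM, above the threshold for silent. The epithelial identity of the label was therefore borne by its general markers and, for the colon, by transcription factors such as GATA6 and CDX2 rather than by the products of mature colon cells.

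Markers of other lineages were mostly low or silent, with 12 of 122 expressed and 66 silent. No marker among 12 each for lymphoid cells, myeloid cells and hepatocytes was expressed. Vimentin, VIM, the intermediate filament of mesenchymal cells, was at 0.474 and 0.471 FPKM. COL1A1, a fibrillar collagen chain, was the only expressed member of the fibroblast list at 7.22 and 7.05 FPKM, and ESAM, an adhesion molecule of endothelium, the only one of its list at 5.09 and 5.73 FPKM. Of the neural list SYT1, a synaptic vesicle calcium sensor, was at 11.4 and 11.8 FPKM, MAP2 at 2.65 and 2.84 FPKM, MBP at 2.21 and 2.52 FPKM and GAD1 at 1.92 and 2.03 FPKM. KRT10, a keratin of the upper epidermis, was at 18.4 and 22.1 FPKM. The remaining expressed markers were ITGA2B (1.81 and 1.56 FPKM), DES (1.88 and 1.497 FPKM), NKX2-1 (1.69 and 1.84 FPKM), PDX1 (1.12 and 1.02 FPKM) and ZP3 (1.03 and 1.30 FPKM). Each of these was far below KRT8 and KRT19. However, KRT10, SYT1, COL1A1 and ESAM were above the epithelial markers GRHL2 (2.84 and 3.18 FPKM) and OVOL1 (3.16 and 3.53 FPKM). They were also above GATA6, the highest colon marker, at 4.27 and 4.41 FPKM. The other expressed markers of other lineages were below GRHL2 and OVOL1. In bulk RNA, expression in few cells and low expression in every cell cannot be told apart.

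**Figure D2:**
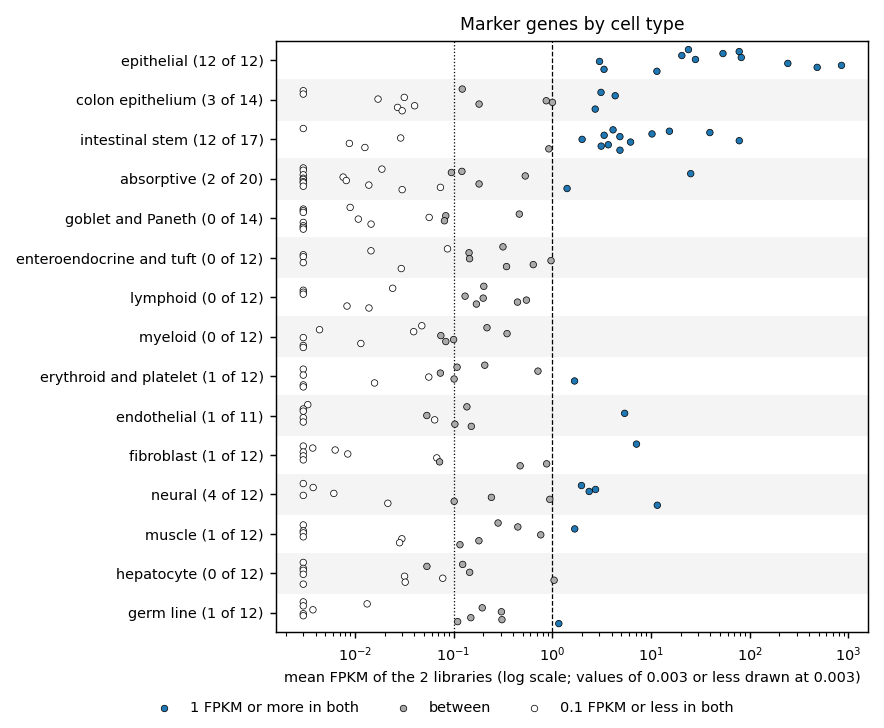
Mean FPKM (x axis, log scale) of each marker gene, one point per gene, in rows by cell type with the number expressed of the number measured. Blue points are expressed, gray low and white silent; the dashed and dotted lines mark 1 and 0.1 FPKM. All 12 epithelial markers lie right of the dashed line, while the lymphoid, myeloid, goblet and enteroendocrine rows have none there. The hepatocyte row has no blue point, but the gray point of SERPINA1 lies just right of the line at a mean of 1.04 FPKM.

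Intestinal genes were grouped by the cell types of the crypt and its differentiated progeny. Of 17 stem and progenitor genes 12 (70.6%) were expressed, against 55.9% of all protein-coding genes, led by MYC at 78.5 and 78.5 FPKM, the hyaluronan receptor CD44 at 40.2 and 38.9 FPKM, the Polycomb gene BMI1 at 15.4 and 15.3 FPKM and CDCA7 at 10.5 and 9.95 FPKM. The Wnt target AXIN2 was at 4.27 and 3.99 FPKM. However, the 4 silent genes of this list included the most specific markers of crypt stem cells: LGR5 with 6 reads in replicate 1 and none in replicate 2, SMOC2, OLFM4, and ASCL2 at 0 in both libraries, where 3 reads would be 0.165 and 0.131 FPKM.

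Of 20 absorptive-cell genes 2 were expressed and 14 silent. CA2, a carbonic anhydrase, was at 24.2 and 26.3 FPKM and SLC9A3, a sodium-proton exchanger, at 1.501 and 1.32 FPKM. Those silent were SLC26A3, VIL1, ANPEP, MS4A12, FABP2, CEACAM5 and, at 0 in both libraries, ALPI, SI, CA4, FABP1, GUCA2A, GUCA2B, CEACAM7 and APOA4. None of the 14 goblet and Paneth cell genes was expressed, and 11 were silent: the secreted mucin MUC2, MUC13, REG4, AGR2 and, at 0, CLCA1, TFF3, SPINK4, DEFA5, DEFA6, ZG16 and REG3A. None of 12 enteroendocrine and tuft cell genes was expressed either, and CHGA, CHGB, TRPM5, GCG, SST and NTS were silent.

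Of 27 intestinal transcription factors 13 were expressed (48.1%), against 55.9% of all protein-coding genes. ID1, an inhibitor of basic helix-loop-helix factors and a target of BMP signals, was highest at 316 and 327 FPKM. SOX9, a factor of the crypt base (chr17:70117161-70122557 of GRCh37), was at 68.8 and 68.2 FPKM, KLF5 at 24.8 and 24.5 FPKM and TCF7L2, the main DNA-binding partner of β-catenin in the gut, at 24.75 and 23.7 FPKM. Silent genes included ISX, PROX1 and, at 0, GATA4, GATA5, CDX1 and NEUROG3. ATOH1, the factor that commits cells to the secretory lineages, was low at 0.0461 and 0.1099 FPKM.

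HOX genes keep a record of position along the body axis. Of the 39, 20 were expressed (51.3%), near the 55.9% of all protein-coding genes. The split was uneven, with 9 of 11 in HOXA, 8 of 10 in HOXB, 2 of 9 in HOXC and 1 of 9 in HOXD. In HOXB the highest were HOXB7 at 18.97 and 17.6 FPKM, HOXB6 at 13.9 and 13.6 FPKM, HOXB8 at 11.7 and 11.1 FPKM. HOXB9 at 8.09 and 9.06 FPKM and HOXB4 at 8.41 and 7.71 FPKM followed and overlapped, as did HOXB4 and HOXB5 at 7.91 and 7.09 FPKM. HOXB1 was at 0. HOXA was led by HOXA9 at 15.2 and 13.3 FPKM, then HOXA5 (5.88 and 5.51 FPKM), HOXA10 (4.38 and 4.14 FPKM) and HOXA7 (3.23 and 3.66 FPKM), and 4 of its 4 members of groups 9 to 13 were expressed. The 2 expressed HOXC genes were HOXC9 at 4.19 and 3.96 FPKM and HOXC13 at 2.23 and 2.81 FPKM, and HOXD8 at 3.66 and 4.01 FPKM was the sole HOXD gene. Exon bases of a HOX gene can be shared with another listed gene on either strand (62.5% of those of HOXA7). Strand was not stated to be used.

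Of 95 other lineage factors 35 were expressed, or 36.8%. FOXD1 was at 25.4 and 28.0 FPKM, SOX4 at 13.3 and 13.6 FPKM, NKX6-1 at 5.13 and 5.00 FPKM, TBX3 at 4.34 and 4.22 FPKM, GATA2 at 3.68 and 3.70 FPKM and PAX8 at 2.09 and 2.33 FPKM. SOX4 followed SOX9 and GATA2 followed GATA6 in their families, and the others were the highest of theirs, although NKX6-1, TBX3 and PAX8 overlapped with the next member.

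Receptor genes were expressed in 129 of 283 cases (45.6%) and silent in 87 (30.7%). Over all protein-coding genes these shares were 55.9% and 28.1%. Of 58 receptor tyrosine kinases, which bind growth factors at the surface, 31 were expressed (53.4%), a share near that of all protein-coding genes. EPHA2, an ephrin receptor, was at 126 and 131 FPKM, far above the hepatocyte growth factor receptor MET at 51.7 and 50.1 FPKM, the collagen receptor DDR1 at 34.99 and 35.7 FPKM and EGFR at 26.6 and 27.0 FPKM. ERBB2 was at 9.43 and 8.95 FPKM and ERBB3 at 6.04 and 6.42 FPKM. Integrins, which hold cells to the matrix, were expressed in 12 of 26 cases (46.2%). The laminin-binding chains were prominent: ITGB1 at 119.6 and 119.03 FPKM, ITGB4 at 84.9 and 84.8 FPKM, ITGA3 at 79.3 and 80.5 FPKM and ITGA6 at 66.5 and 65.8 FPKM. The leukocyte chain ITGAM was low at 0.107 and 0.0926 FPKM.

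Some ligands of the EGF receptor were at higher levels than the receptor itself. AREG, amphiregulin (chr4:75310853-75320722 of GRCh37), was at 334 and 334 FPKM, EREG, epiregulin, at 85.3 and 84.3 FPKM, TGFA at 20.5 and 19.97 FPKM and HBEGF at 6.68 and 6.98 FPKM, and the order of these 4 was resolved in both libraries. BTC was at 1.43 and 1.25 FPKM, and in all 5 of 11 EGF family ligands were expressed. AREG and EREG were thus both above EGFR, and TGFA and HBEGF below it. The neuregulin NRG1, a ligand of ERBB3, was low at 0.130 and 0.0894 FPKM. Of 22 fibroblast growth factors 4 were expressed, FGF19, a gut hormone, at 7.70 and 7.75 FPKM, FGF18 at 1.92 and 1.82 FPKM, FGF2 at 1.19 and 1.44 FPKM and FGF22 at 1.10 and 1.30 FPKM. Ephrins were expressed in 6 of 8 cases, led by EFNB1 at 15.7 and 15.6 FPKM, EFNB2 at 13.01 and 12.4 FPKM, EFNA3 at 7.79 and 9.13 FPKM and EFNA2 at 8.54 and 7.26 FPKM.

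Among other growth factors, 16 of 33 were expressed (48.5%). The heparin-binding factor MDK was at 86.1 and 82.1 FPKM, KITLG at 63.0 and 64.9 FPKM, GAS6 at 19.8 and 20.4 FPKM and PDGFB at 18.6 and 17.5 FPKM. GAS6 is the ligand of AXL, whose gene was at 26.1 and 26.2 FPKM.

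Of 14 receptors of the TGF-β family 10 were expressed. TGFBR2, which binds the ligand first, was highest at 15.8 and 16.2 FPKM and TGFBR1 was at 6.67 and 6.85 FPKM. The activin receptors ACVR1B (9.72 and 10.9 FPKM), ACVR1 (7.35 and 7.82 FPKM), ACVR2B (3.18 and 3.395 FPKM), ACVR2A (2.54 and 2.35 FPKM) and ACVR1C (1.43 and 1.47 FPKM) and the BMP receptors BMPR2 (4.33 and 4.49 FPKM) and BMPR1A (4.01 and 4.08 FPKM) were spread below TGFBR2. The co-receptor TGFBR3 was at 3.82 and 3.90 FPKM, and no expressed neighbors in this order overlapped. Receptors typical of endothelium were low, ENG at 0.725 and 0.515 FPKM and ACVRL1 at 0.495 and 0.466 FPKM, while BMPR1B and AMHR2 were silent. The ligands were led by GDF15, a stress-induced hormone, at 233 and 244 FPKM, then BMP4 at 21.6 and 22.5 FPKM, TGFB1 at 20.7 and 20.9 FPKM and AMH at 11.7 and 12.4 FPKM. AMH was thus expressed while its own receptor gene AMHR2 was silent.

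Wnt receptors were expressed in 10 of 15 cases, with the co-receptor LRP5 at 20.4 and 20.9 FPKM, FZD6 at 14.8 and 13.2 FPKM, FZD2 at 10.4 and 9.27 FPKM and LRP6 at 6.60 and 6.21 FPKM. Of 19 WNT ligands 9 were expressed (47.4%). WNT16 (chr7:120965421-120981158 of GRCh37) was highest at 38.5 and 39.8 FPKM, followed by WNT9A at 11.3 and 10.9 FPKM, WNT6 at 5.26 and 6.12 FPKM and WNT7B at 5.28 and 4.89 FPKM. NOTCH2 at 13.5 and 13.96 FPKM, NOTCH3 at 11.98 and 12.8 FPKM and NOTCH1 at 11.1 and 11.4 FPKM were close to one another, and NOTCH4 was low at 0.0627 and 0.150 FPKM. Their ligands JAG2 (24.6 and 23.9 FPKM), JAG1 (9.96 and 9.63 FPKM), DLL1 (3.14 and 3.47 FPKM) and DLL4 (1.34 and 1.07 FPKM) were expressed, but none of the Hedgehog ligands was: SHH was at 0.293 and 0.145 FPKM, DHH at 0.217 and 0.319 FPKM and IHH at 0.101 and 0 FPKM. The Hedgehog transducer SMO was nevertheless expressed at 4.69 and 4.96 FPKM, as were CDON at 2.94 and 2.83 FPKM and PTCH1 at 2.29 and 2.12 FPKM.

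Chemokines, their receptors, Toll-like receptors and interleukins were mostly not expressed. Of 22 chemokine receptors only CXCR4, at 3.28 and 3.37 FPKM, was expressed, and of 40 chemokines only CXCL16 at 22.0 and 23.7 FPKM, CXCL8 at 3.65 and 4.38 FPKM and CXCL1 at 1.14 and 1.06 FPKM. No Toll-like receptor was expressed of 10, with TLR6 highest at 0.709 and 0.678 FPKM and TLR4, the receptor for lipopolysaccharide, at 0 in both libraries, which allows at most 0.0115 and 0.00916 FPKM. Cytokine receptors were expressed in 20 of 50 cases, led by OSMR at 22.1 and 21.9 FPKM, EPOR at 12.6 and 12.1 FPKM, IL4R at 12.01 and 11.4 FPKM and IL27RA at 11.8 and 11.2 FPKM. Of 58 interleukin and interferon genes 7 were expressed, with IL18 at 30.9 and 30.7 FPKM, LIF at 25.3 and 25.1 FPKM, CLCF1 at 6.06 and 6.07 FPKM and IL11 at 1.91 and 2.20 FPKM. TNF receptors were expressed in 16 of 29 cases (55.2%), a share near that of all protein-coding genes, and the TRAIL death receptors TNFRSF10B at 45.8 and 46.4 FPKM and TNFRSF10A at 16.8 and 16.9 FPKM stood beside the decoy TNFRSF10D at 34.0 and 33.4 FPKM. The highest was TNFRSF12A, the TWEAK receptor, at 78.0 and 76.2 FPKM, and TNFRSF1A was at 25.5 and 25.7 FPKM.

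Nuclear receptors, which are transcription factors switched by small ligands, were expressed in 23 of 48 cases (47.9%), against 55.9% of all protein-coding genes. NR2F2 was at 39.0 and 39.0 FPKM, NR2F6 at 33.0 and 32.3 FPKM, PPARD at 25.3 and 25.5 FPKM and ESRRA at 23.1 and 22.1 FPKM. The vitamin D receptor VDR was at 3.70 and 4.18 FPKM and the glucocorticoid receptor NR3C1 at 3.97 and 3.51 FPKM. The estrogen receptor ESR1 and the progesterone receptor PGR were silent, and PGR was at 0 in both libraries.

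**Figure D3:**
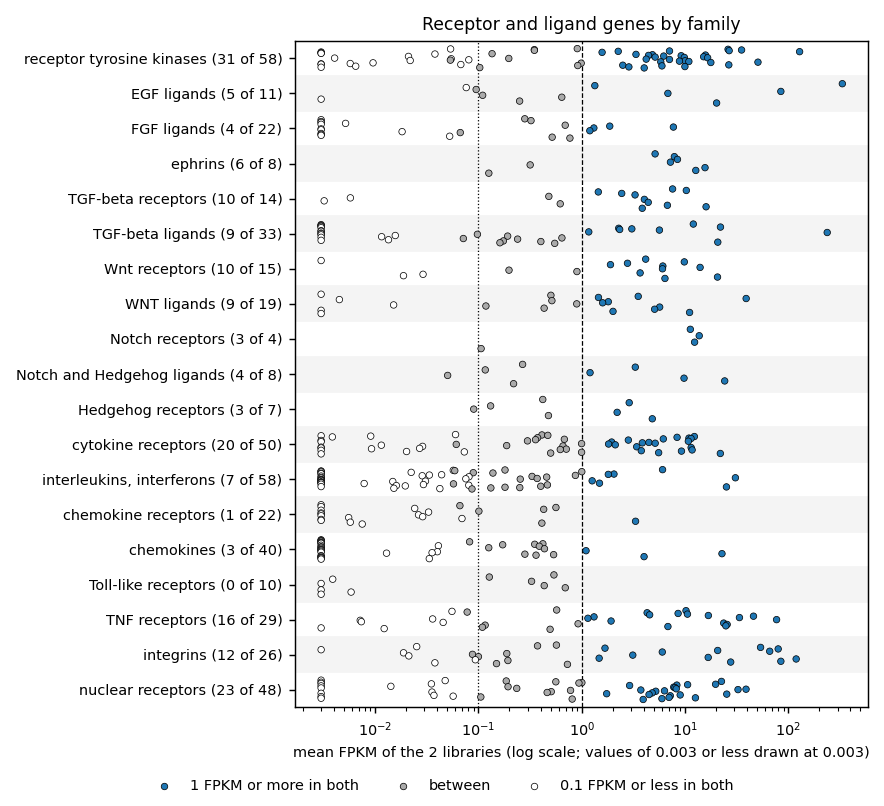
Mean FPKM (x axis, log scale) of receptor and ligand genes, one point per gene, in rows by family with the number expressed of the number measured. Blue points are expressed, gray low and white silent. EGF ligands reach the highest values of the ligand families, with AREG rightmost, whereas the chemokine, chemokine receptor and Toll-like receptor rows lie mainly left of the dashed line at 1 FPKM.

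Tumor suppressor genes were expressed in 90 of 106 cases, or 84.9%, and 10 were silent. All 8 mismatch repair genes were expressed. EXO1, the exonuclease of the pathway, was at 9.36 and 9.94 FPKM, PMS1 at 6.56 and 6.24 FPKM, MSH6 at 5.67 and 5.70 FPKM and PMS2 at 5.50 and 5.40 FPKM. Lower were MLH3 at 2.42 and 2.51 FPKM and MSH3 at 1.07 and 1.03 FPKM, and no neighbors among these 6 overlapped. The level of MSH3, whose product takes part in recognizing larger loops, was the lowest of the 8.

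Of the genes that hold back the cell cycle all 13 were expressed, with CDKN1A (p21) at 206 and 211 FPKM, CDKN1B at 27.2 and 25.6 FPKM, CDKN1C at 19.6 and 21.1 FPKM and CDKN2D at 16.9 and 17.4 FPKM. CDKN2A, often silenced in colorectal tumors, was at 14.4 and 16.5 FPKM. All 8 tumor suppressors of TGF-β and BMP signaling were expressed, led by SMAD3 at 43.95 and 44.4 FPKM, with RUNX3 at 9.42 and 10.0 FPKM and SMAD4 at 6.27 and 6.67 FPKM. The brakes on PI3K, RAS and Hippo signaling were expressed in 13 of 13 cases, NF2 at 16.3 and 16.6 FPKM among them, and chromatin regulators in 14 of 14, with BAP1 at 20.7 and 20.9 FPKM.

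The silent tumor suppressors were mainly secreted Wnt antagonists. SFRP1, SFRP2, DKK4 and WIF1 were at 0 in both libraries, and DKK3, DKK2 and SFRP4 did not pass 0.1 FPKM in either. For SFRP1 the limit at 0 was 0.0323 and 0.0257 FPKM. Of this list of 15 Wnt brakes 6 were expressed, and DKK1, itself a secreted antagonist, was the highest at 89.2 and 89.5 FPKM, above the ubiquitin ligase gene ZNRF3 at 5.02 and 4.69 FPKM, APC at 4.34 and 4.29 FPKM and AXIN2 at 4.27 and 3.99 FPKM. Outside this list the silent suppressors were WT1 and GATA5, at 0, and DCC with 0.00387 FPKM in replicate 1 and 0 in replicate 2.

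Oncogenes were expressed in 30 of 37 cases. CCND1, cyclin D1, was at 358 and 361 FPKM, MYC at 78.5 and 78.5 FPKM, the anti-apoptotic MCL1 at 72.6 and 73.4 FPKM and CTNNB1, β-catenin, at 33.2 and 32.3 FPKM. Of the RAS genes HRAS was at 27.2 and 30.5 FPKM and NRAS at 21.8 and 22.5 FPKM. The kinase gene AKT1 was at 12.1 and 11.8 FPKM. The genes of DNA methylation were expressed in 13 of 15 cases, with UHRF1 at 44.3 and 43.8 FPKM, the maintenance methyltransferase DNMT1 at 35.9 and 34.7 FPKM, DNMT3B at 13.6 and 14.5 FPKM and MBD1 at 13.5 and 12.8 FPKM.

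Cancer-testis genes, normally restricted to germ cells, were nearly all silent when X-linked: 2 of 48 were expressed and 39 silent. The pair was MAGEB2 at 88.8 and 87.7 FPKM and MAGEA3 at 50.1 and 49.96 FPKM. MAGEA6, a close relative of MAGEA3, had 1 and 9 reads against 1758 and 2204 for MAGEA3. Whether MAGEA6 was hardly transcribed or its reads were counted for MAGEA3 was not tested. Of 34 autosomal members 10 were expressed, PBK at 48.2 and 52.8 FPKM, CEP55 at 38.2 and 37.6 FPKM, ATAD2 at 37.5 and 37.5 FPKM and TTK at 17.9 and 16.5 FPKM. These 4 are also genes of dividing cells.

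Olfactory receptors, chosen after their values were seen, were silent in 391 of 414 cases and expressed in 8. Of the 8, 7 lay in one stretch of chromosome 11 next to the β-globin genes. The highest was OR51B4 (chr11:5322244-5323176 of GRCh37, minus strand) at 17.0 and 14.3 FPKM, then OR51B5 at 11.9 and 11.98 FPKM, OR51B2 at 6.89 and 4.58 FPKM and OR52D1 at 3.01 and 2.02 FPKM. OR51B6 (2.60 and 1.04 FPKM), OR51Q1 (1.30 and 1.52 FPKM) and OR51M1 (1.13 and 1.04 FPKM) were near the threshold, and the member from elsewhere was OR2A7 on chromosome 7. Within the same stretch the fetal globin HBG2 was at 3.75 and 3.26 FPKM, on 64 and 70 reads, whereas HBB was at 0 and HBD had 2 reads and 1 read. The annotated gene bodies of OR51B5 and HBG2 overlap across this stretch, so whether the reads came from separate transcripts or from 1 long transcript was not tested. Other gene families with symbols of a common stem, also chosen after their values were seen, were silent throughout or nearly so: 0 of 19 late cornified envelope genes, 0 of 15 genes with PRAMEF symbols (PRAME itself, which was expressed, is not counted) and 0 of 16 β-protocadherin genes were expressed.

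Isoform families were dominated by 1 or 2 members. Of 6 actins ACTG1 and ACTB were expressed, ACTG1 at 2491 and 2447 FPKM and ACTB (chr7:5566040-5603533 of GRCh37) at 543 and 549 FPKM, a ratio of 4.52 in mean FPKM and of 3.90 and 3.79 in reads. The muscle actins were low or silent, ACTA2 at 0.633 and 0.599 FPKM, ACTA1 at 0.375 and 0.190 FPKM, ACTG2 at 0 and 0.0106 FPKM and ACTC1 at 0. Of the β-thymosins TMSB10 exceeded TMSB4X, at 101 and 99.4 FPKM, by 21.2-fold in mean FPKM and 6.06-fold and 6.29-fold in reads. TMSB15A was at 15.6 and 13.1 FPKM and TMSB15B at 0.0553 and 0.103 FPKM. For ferritin the scale decided the order: FTL, at 1017 and 1032 FPKM, exceeded the heavy chain FTH1, at 454 and 459 FPKM, by length-scaled level, but FTL held 17520 and 22349 reads and FTH1 18077 and 22970. FTH1 shares 63.2% of its exon bases with another gene and FTL 0%. FTMT and FTHL17 were at 0. The length by which each gene is divided is that of all its annotated exons joined, which exceeds the length of the mRNA where many exons are rarely used.

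Keratins were expressed in 9 of 54 cases and claudins in 8 of 23. After KRT19, KRT8 and KRT18 came KRT10 and KRT7, a keratin of ductal epithelia, at 14.4 and 14.5 FPKM, while KRT20, the keratin of mature colon cells, was low at 0.0552 and 0.307 FPKM. The tight-junction genes CLDN4 at 78.1 and 78.6 FPKM, CLDN7 at 55.01 and 52.3 FPKM and CLDN3 at 17.0 and 17.8 FPKM led the claudins, and CLDN12 was at 7.66 and 7.74 FPKM. Cadherin and desmosome genes were expressed in 12 of 34 cases: JUP, plakoglobin, at 90.1 and 90.0 FPKM, DSG2 at 57.1 and 56.5 FPKM, DSP at 36.4 and 37.4 FPKM and PKP3 at 33.1 and 32.1 FPKM. P-cadherin, CDH3, at 30.4 and 29.7 FPKM was above E-cadherin, CDH1. Of 16 mucins only MUC3A, at 1.52 and 1.31 FPKM, was expressed.

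Glycolytic genes were expressed in 18 of 26 cases, GAPDH, ENO1 (666 and 686 FPKM), TPI1 (312 and 319 FPKM) and PKM (308 and 310 FPKM) highest. Lactate dehydrogenase was mostly LDHA, at 290.3 and 292 FPKM against 17.6 and 15.1 FPKM for LDHB, which shares 33.4% of its exon bases. Glucose uptake genes were led by SLC2A1 (GLUT1) at 138 and 138 FPKM, followed by SLC2A6 at 7.91 and 7.40 FPKM, SLC2A3 at 5.96 and 6.24 FPKM and SLC2A8 at 5.12 and 4.90 FPKM. Of the lamins LMNA was at 141 and 143 FPKM, LMNB2 at 80.2 and 79.8 FPKM and LMNB1 at 37.6 and 37.2 FPKM.

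Histone genes marked the limit of poly(A) selection. All 10 genes listed as replacement histones, which can give mRNAs with a poly(A) tail, were expressed. Among them were H3-3B at 152 and 157 FPKM, H2AX at 132 and 141 FPKM and H2AZ1 at 138 and 134 FPKM. Of 21 replication-dependent histone genes, whose mRNAs end in a stem-loop instead, 6 reached 1 FPKM in both libraries, led by H2BC12 at 23.8 and 28.7 FPKM, H1-2 at 16.5 and 15.02 FPKM, H2BC5 at 4.56 and 4.98 FPKM and H2AC6 at 3.45 and 3.16 FPKM. Silence of a gene without a poly(A) tail therefore cannot be read from these libraries. None of 34 housekeeping genes was at 0, and the lowest of them was EIF4A1 at 2.85 and 2.47 FPKM, with 47.4% of its exon bases shared.

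Among the genes that the study turned on, the m6A writers METTL3 (10.2 and 9.70 FPKM), METTL14 (6.33 and 6.85 FPKM) and WTAP (9.02 and 9.54 FPKM), the erasers ALKBH5 (38.6 and 37.7 FPKM) and FTO (1.74 and 1.64 FPKM) and the readers YTHDF1 (23.1 and 22.8 FPKM), YTHDF2 (21.8 and 22.0 FPKM), YTHDF3 (14.4 and 15.1 FPKM) and YTHDC1 (15.3 and 15.1 FPKM) were expressed. The Hippo effector YAP1 was at 19.95 and 20.1 FPKM, CREBBP at 6.45 and 6.21 FPKM and HPRT1 at 38.5 and 38.1 FPKM. KIF26B, the target of the siRNA used in the other libraries, was low in the controls at 0.1096 and 0.205 FPKM, and FOXD3, a transcription factor, at 0.147 and 0.117 FPKM. Both were therefore below the level at which a gene was called expressed here.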

How the data were processed

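Poly(A) RNA of HCT116 cells in 2 control siRNA libraries was analysed. The values the authors deposited are FPKM per Ensembl gene and library; the unit was inferred from the numbers. The submitters' processing notes name HISAT2 2.0.5 and featureCounts 1.5.0-p3. The methods give the build as hg19 and the notes as hg38. Handling of strand, overlapping genes and multiple mapping was not given in the sources used here. Symbols, biotypes and coordinates came from GENCODE v44 lifted to GRCh37, which matched 56513 of 58735 identifiers; 2222 had no match. Of these, 136 were expressed and held 1.48% and 1.83% of FPKM.

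The divisors, 19629581 and 24673739 fragments, were inferred from the steps between the values of single-exon genes. The recovered reads came to 21408517 and 27083521, above these divisors, and the reason was not tested. Reads were recovered with the length that made all libraries of a gene whole, nearest to the annotated length. The KIF26B siRNA files served this step only. The search was tested on simulated data: reads of 500 genes were recovered in 100% of cases. The simulated lengths were those the search had already chosen, so this could not show whether the chosen lengths are right. Of the genes above 0, 47.8% had a recovered length equal to the annotated one. Expressed meant 1 FPKM or more, silent 0.1 FPKM or less, in both libraries. No test between groups was made. Named were the 25 most abundant protein-coding genes, up to 4 expressed genes of each list, all mismatch repair, TGF-β receptor, Notch receptor, actin, thymosin and ferritin genes, silent tumor suppressor, intestinal and epithelial genes, and the study's genes. Some genes that this rule names are not reported here. Genes outside this rule are given as landmarks and were chosen after their values were seen. The members and lists were chosen with earlier results of these data known. The scripts ran under pandas 2.3.3 and numpy 2.4.6 in Python 3.11.15, with matplotlib 3.10.9 for the plots.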

Additional observations from a re-analysis of the deposited data

How the results depend on the processing

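No paired analysis was possible because only 1 group was described and no result came from a test. Leaving out either library gave 11183 to 11190 expressed protein-coding genes, and no count moved by more than 1.5 times. The number of expressed markers of other lineages was 12, but 6 with thresholds of 2 and 0.2 FPKM and 21 with FPKM rescaled to TPM. The 25 most abundant protein-coding genes held 27.0% of all FPKM, against 30.8% of protein-coding FPKM, 10.1% of recovered reads and 27.9% among genes of at least 200 bases of exon. Mitochondrial genome genes held 25.4%, against 24.96% of protein-coding FPKM, 6.27% of reads and 24.5% among genes of at least 200 bases. The median difference between the libraries was 0.057 (log2), 0.065 with a pseudocount of 0.1 and, added after seeing the data, 0.066 with none. The other counts stayed within 1.5 times their value, including 17269 expressed genes at 10 or more reads in both libraries, also added afterwards.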
